A study of Mus musculus with 8 samples.

Results

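The prostaglandin and leukotriene enzymes are 10 genes, chosen by symbol out of 32227 genes in the deposited count tables, and all 10 had counts. *Ptgs1* and *Ptgs2* encode the cyclooxygenases, *Ptges*, *Hpgds*, *Ptgds* and *Tbxas1* encode terminal synthases, *Hpgd* encodes the enzyme that inactivates prostaglandins, and *Alox5*, *Alox5ap* and *Ltc4s* encode the leukotriene branch. They were measured in 8 PIPseq libraries, each made from CD45+ cells that were magnetically selected from the brain of 1 male C57Bl/6J mouse, 5 to 6 months old by the labels. The mice had received saline or lipopolysaccharide (LPS), a bacterial cell wall component, at 15000000 EU/kg into the peritoneum 24 hours before brain collection, and the brains were not perfused, so blood cells in the vessels were taken with them. Dissociation took place with actinomycin D, triptolide and anisomycin, which block transcription and translation, or with their vehicle DMSO. Both treatments were crossed, which gives 4 groups of 2 libraries (saline or LPS, each with DMSO or inhibitors), and the labels put replicate 1 of every group in batch 1 and replicate 2 in batch 2. The comparisons ask how the enzymes changed with LPS in each cell class, and whether dissociation without inhibitors altered them.

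Prostaglandins and leukotrienes are made from arachidonic acid that phospholipases release from membranes. The cyclooxygenases turn it into prostaglandin H2, from which PTGES makes prostaglandin E2, HPGDS and PTGDS make prostaglandin D2 and TBXAS1 makes thromboxane A2, while the dehydrogenase HPGD oxidizes prostaglandins to inactive forms. ALOX5, with the help of ALOX5AP, makes leukotriene A4, which LTC4S joins to glutathione. In the brain, prostaglandin E2 made by endothelial cells during systemic inflammation is known as a mediator of fever.

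The promoters of 4 members are shown because these genes moved farthest with LPS, *Ptgs2* and *Ptges* upward and *Hpgd* and *Ltc4s* downward. Each stretch holds 300 bases, from 250 before to 50 after the start of the gene in RefSeq (GRCm38.p6), read 5′ to 3′ on the strand of the gene, and 9 of the 10 members had an entry. *Ptgs2* (ENSMUSG00000032487) lies on the plus strand at chr1:150099781-150100080, *Ptges* (ENSMUSG00000050737) on the minus strand at chr2:30903248-30903547, *Hpgd* (ENSMUSG00000031613) on the plus strand at chr8:56294302-56294601 and *Ltc4s* (ENSMUSG00000020377) on the minus strand at chr11:50238483-50238782. Capitals mark 4 letter strings searched on both strands, which were chosen after the sequences had been seen.
Ptgs2: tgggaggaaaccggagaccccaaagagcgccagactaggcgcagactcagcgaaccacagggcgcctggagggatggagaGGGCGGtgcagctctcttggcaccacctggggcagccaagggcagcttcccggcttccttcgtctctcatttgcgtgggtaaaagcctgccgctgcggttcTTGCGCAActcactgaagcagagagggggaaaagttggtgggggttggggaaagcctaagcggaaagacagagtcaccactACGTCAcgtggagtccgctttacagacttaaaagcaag
Ptges: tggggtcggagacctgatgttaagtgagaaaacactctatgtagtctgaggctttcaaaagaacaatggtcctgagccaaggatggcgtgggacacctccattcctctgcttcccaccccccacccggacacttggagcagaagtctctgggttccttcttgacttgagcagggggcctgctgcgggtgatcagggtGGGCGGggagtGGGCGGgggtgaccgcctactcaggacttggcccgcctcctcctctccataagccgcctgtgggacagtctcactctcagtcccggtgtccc
Hpgd: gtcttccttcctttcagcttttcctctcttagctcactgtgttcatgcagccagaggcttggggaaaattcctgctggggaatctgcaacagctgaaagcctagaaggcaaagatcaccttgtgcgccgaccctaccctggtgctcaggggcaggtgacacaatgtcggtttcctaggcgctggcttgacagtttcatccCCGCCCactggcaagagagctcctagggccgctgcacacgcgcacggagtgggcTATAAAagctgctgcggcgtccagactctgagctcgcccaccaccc
Ltc4s: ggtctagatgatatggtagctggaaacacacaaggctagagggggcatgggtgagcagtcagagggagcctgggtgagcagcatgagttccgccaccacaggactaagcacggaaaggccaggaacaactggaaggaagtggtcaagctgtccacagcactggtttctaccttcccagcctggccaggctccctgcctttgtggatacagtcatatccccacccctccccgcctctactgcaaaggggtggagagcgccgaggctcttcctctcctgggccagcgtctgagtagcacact
The letters of a C/EBP site, TTGCGNAA, stood at -69 to -62 of *Ptgs2* and occur in 0.7975% of 32851 promoters. The string TGACGT, the core of a cyclic AMP response element, stood in *Ptgs2* at 13 to 18 on the opposite strand and occurs in 7.513% of promoters. The string GGGCGG, a GC box, was found once in *Ptgs2*, in 2 copies in *Ptges* and once on the opposite strand in *Hpgd*, against 35.66% of all promoters with at least 1. *Hpgd* held TATAAA, which occurs in 13.62% of promoters, at 5 to 10, past its annotated start. None of the 4 strings was found in the window of *Ltc4s*. A match describes these letters alone.

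After limits on UMIs, genes and mitochondrial UMIs per cell, without the limit on complexity that the study also set, 119053 cells remained, from 12039 to 17364 per library, out of totals of 90352359 to 141182123 UMIs (unique molecules). Cells were assigned to classes by gates on marker genes, so that a class name below stands for cells with those markers, and 92.5% of the cells fell in exactly 1 class. Of the 5664 cells that passed no gate, 5049 came from LPS libraries. The 10 tested classes ranged from 92599 microglia to 218 leptomeningeal cells. Levels are the UMIs of a gene per 1000000 UMIs of its class in a library (CPM), and 4 values in a row follow the order DMSO 1, DMSO 2, inhibitors 1, inhibitors 2. With summed counts, fewer cells that express a gene and less RNA per cell cannot be told apart. Free RNA, taken from barcodes with 1 to 99 UMIs, gave an expected background for every member, class and library. Over the 28 pairs of libraries at most 25 cell barcodes (0.1865%) were shared.

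With LPS, the members changed in opposite directions within 1 pathway. *Ptges* rose in all 6 classes in which it was tested, while *Hpgd* and *Ltc4s* fell in every class in which they were tested. The count filter can admit a gene through its higher group alone, so the tested classes were not picked independently of direction. Without a test, mean *Ptges* was higher after LPS in dendritic cells, B-cells and NKs and lower in T-cells, on few UMIs. *Ptgs2* rose in endothelial cells, dendritic cells, macrophages and microglia, fell in neutrophils and was not called in monocytes. Its rise in microglia, from a mean of 1.44 to 2.54 CPM, depended on the fit, as given below. Of 100 possible pairs of member and class, 64 had enough counts for a test, and 50 were called by edgeR's quasi-likelihood F-test at an adjusted p under 0.05, of which 12 were higher and 38 lower. Over all genes tested in the 9 classes with a tested member 41.5% were called, 19.9% higher and 21.6% lower. In 19 of the 50 the higher group was below 2 times the expected free RNA, a limit set after seeing the data, and with the expected free RNA subtracted 30 pairs were called. The 19 were all 3 calls in T-cells, 1 of 2 in B-cells, 5 of 7 in endothelial cells, 4 of 7 in monocytes, 5 of 8 in neutrophils and *Ptgds* in microglia. Of the remaining 31, 9 were in microglia and 9 in macrophages. Microglia had 10 of 10 members called where 62.7% of all genes were, macrophages 9 of 10 against 49.4%, neutrophils 8 of 10 against 22%, monocytes 7 of 10 against 29.3% and endothelial cells 7 of 9 against 42.7%. The smaller counts were 3 of 3 in dendritic cells (40.5% of all genes), 3 of 5 in T-cells (18.5%), 2 of 5 in B-cells (10.8%) and 1 of 2 in leptomeningeal cells (28.9%). No member passed the count filter in NKs.

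**Figure D1:**
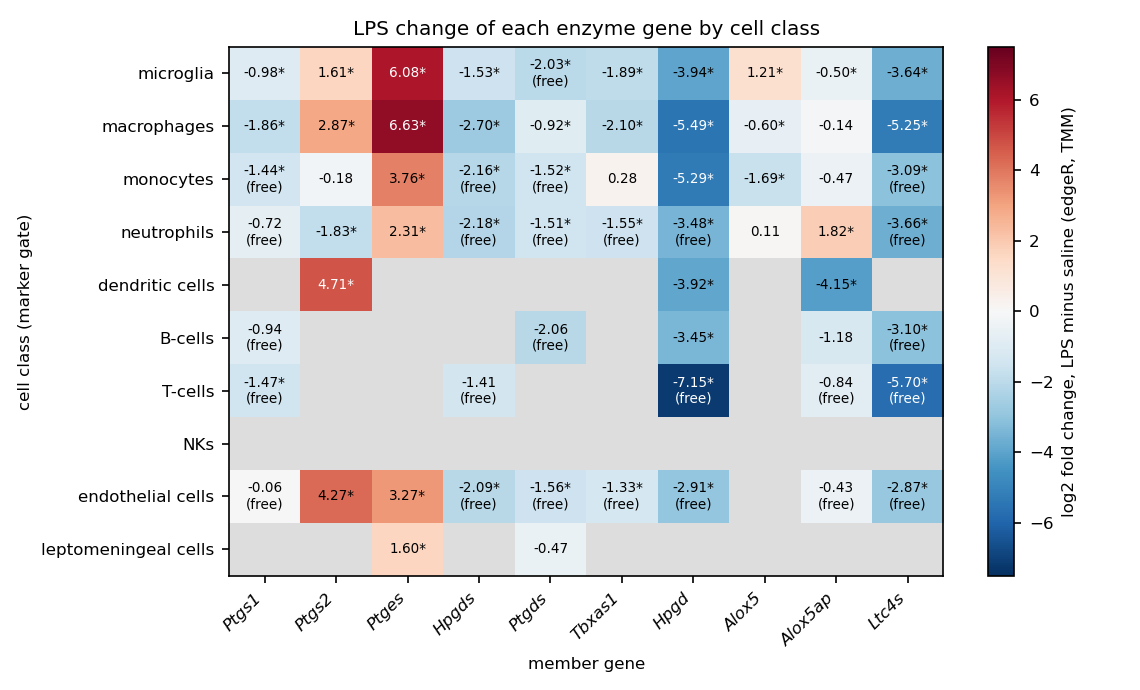
LPS change of each member (columns) in each tested class (rows), as log2 fold change of LPS against saline on the TMM scale, 4 libraries against 4. An asterisk marks an adjusted p under 0.05, "(free)" a pair whose higher group was under 2 times the expected free RNA, and grey an untested pair; *Ptges* is called higher in 6 classes, and *Hpgd* and *Ltc4s* are lower in every tested class. With scaling by library totals, or with no covariate, *Ptgs2* in microglia is no longer called.

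Changes are given on the scale of TMM, which sets the bulk of genes equal between libraries. Scaling by library totals, an alternative chosen after seeing the data, moved the median change over all genes in microglia from -0.20 to -0.98 on the log2 scale, and in macrophages from -0.05 to -0.40. In the other classes the shift was between -0.28 and -0.03. Accordingly, 46.2% of the calls over all genes in microglia were higher with TMM and 16.4% with library totals, and in macrophages these shares were 48.8% and 26.9%. In the other classes they ran from 44.9% to 53.2% with TMM and from 32.0% to 45.2% with library totals. CPM follow library totals, so that a fold of CPM and a fold on the TMM scale differ in microglia by this shift.

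*Ptgs1* (ENSMUSG00000047250), the constitutive cyclooxygenase, was highest in microglia among the 13 classes ranked over libraries. In saline microglia it stood at 795, 816, 774 and 781 CPM, and after LPS at 216, 277, 280 and 184 CPM. All LPS libraries lay below all saline libraries, and the change was -0.98 ± 0.15 on the log2 scale (SE, adjusted p = 7.41e-05) with TMM and -1.73 with library totals. In macrophages *Ptgs1* was 231, 207, 228 and 196 CPM in saline and 47.9, 46.1, 68.1 and 27.1 CPM after LPS, again without overlap (-1.86 ± 0.19, adjusted p = 7.46e-07). In saline the level of macrophages relative to microglia was -1.86 ± 0.06 on the log2 scale (adjusted p = 2.22e-25, mouse as a block), and macrophages stood above the rest of the 13 classes in every saline library. The calls of *Ptgs1* in monocytes and T-cells were of levels near the expected free RNA.

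Markers moved within the microglia and macrophage classes as well, beside every result given for them. The 12 microglia markers, none at 0, summed to 36616 to 38660 CPM in saline microglia and 6772 to 7850 CPM after LPS, with *P2ry12*, a purinergic receptor, at 4848 and 185 CPM and *Gpr34* at 1792 and 13.5 CPM. The 11 neutrophil markers summed to 25 to 229 CPM in saline microglia and 395 to 560 CPM after LPS. Their part in the changes of the members in microglia was not tested. The summed level of the 10 macrophage markers in macrophages, none at 0, was 13806 to 17541 CPM in saline and 5382 to 5630 CPM after LPS. *Lyve1*, *Stab1* and *Mrc1*, receptors of macrophages at the borders of the brain, stood at 549, 2504 and 3650 CPM in saline and at 23.6, 252 and 1143 CPM after LPS, whereas *Cd163* was at 876 and 800 CPM. The 12 microglia markers summed to 5822 to 6277 CPM in saline and 696 to 985 CPM after LPS in these cells, and the 11 neutrophil markers to 82.0 to 274 and 512 to 621 CPM. The part of these shifts in the changes of the members in macrophages was not tested.

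*Ptgs2* (ENSMUSG00000032487), the inducible cyclooxygenase, rose most in level in endothelial cells. There it stood at 23.7, 40.5, 33.4 and 51.0 CPM in saline and at 651, 588, 832 and 470 CPM after LPS, while the expected free RNA did not exceed 1.45 CPM by the 4-gene estimate and 10.2 CPM by the whole marker list. The groups did not overlap, and the change was 4.27 ± 0.23 on the log2 scale (adjusted p = 7.97e-11). The share of endothelial cells with at least 1 *Ptgs2* UMI rose from 2.19% ± 0.74 to 28.7% ± 5.3 (SD, n = 4 libraries each) after thinning every cell to 800 UMIs, and from 9.58% to 48.7% without thinning. In B-cells, given for comparison, the shares without thinning were 0.280% and 0.544%. The median depth ranged over libraries from 2476.5 to 3709.5 UMIs in endothelial cells and from 1638 to 2387 UMIs in B-cells. The 12 endothelial markers, none at 0 in either group, summed to 26248 to 29057 CPM in saline and 15789 to 16855 CPM after LPS. Among them *Itm2a* went from 4010 to 109 CPM, *Ptprb* from 1458 to 238 CPM and *Tek* from 659 to 108 CPM, *Cldn5* from 5984 to 3632 CPM, and *Cdh5* stood at 704 and 761 CPM. The part of this shift in the changes of the members in endothelial cells was not tested. The summed level of the 10 macrophage markers in these cells was 163 to 243 CPM in saline and 195 to 239 CPM after LPS, and that of the 11 neutrophil markers 18.5 to 180 and 70.1 to 218 CPM. Lists that moved without overlap included the 12 microglia markers, at 3404 to 3847 CPM in saline and 1632 to 2532 CPM after LPS, and the 8 neuron markers, at 359 to 447 and 61.3 to 98.3 CPM. The microglia list holds *Sparc* and *Ecscr*, which are also genes of endothelial cells, so its sum here does not measure microglia RNA alone. The 10 choroid plexus markers were at 1536 to 6982 and 635 to 1374 CPM. Those of pericytes and smooth muscle were at 137 to 212 and 47.4 to 114 CPM. The lists of B-cells, leptomeningeal cells and platelets fell without overlap too. Their part was not tested.

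In dendritic cells *Ptgs2* had 4 UMIs in 1 saline library (35.7 CPM) and none in the other 3, and reached 566, 309, 98.9 and 70.2 CPM after LPS. The groups did not overlap, and the change was 4.71 ± 0.56 (adjusted p = 1.96e-06). Without saline DMSO replicate 1, the only saline library with a UMI, the saline group was at 0, and the pair was still called. The makeup of this class differed between groups. *Cd209a*, a marker of conventional dendritic cells, fell from 1031 to 14.8 CPM, and *Clec9a* and *Xcr1* from 138 and 118 CPM to 0, whereas *Ccr7*, which mature dendritic cells carry, stood at 451 and 4317 CPM. The class held 126 cells in saline and 296 after LPS, and a change within 1 kind of dendritic cell and a change in the kinds sampled cannot be told apart. Marker lists of other classes fell in these cells without overlap as well. Among them, the 10 monocyte markers summed to 571 to 997 CPM in saline and 83.7 to 402 CPM after LPS. The 12 microglia markers summed to 2722 to 3042 and 473 to 1062 CPM. Their part in the changes of the members was not tested.

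In macrophages *Ptgs2* stood at 11.9, 8.59, 1.04 and 0.488 CPM in saline and at 89.6, 18.9, 4.20 and 9.60 CPM after LPS. The ranges overlapped, since both groups held higher values in DMSO than in inhibitor libraries. With the dissociation label as a covariate the change was 2.87 ± 0.46 (adjusted p = 7.75e-05), and 1.98 without LPS DMSO replicate 1, still called. Microglia were low throughout, at 2.34, 2.38, 0.636 and 0.385 CPM in saline and 6.55, 1.54, 1.37 and 0.694 CPM after LPS. Their change of 1.61 ± 0.38 (adjusted p = 0.0025) was lost with library totals (0.86, adjusted p = 0.0602) and with no covariate (1.58), and it was 1.03 without LPS DMSO replicate 1.

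Neutrophils moved the other way. Their *Ptgs2* was 106, 86.7, 47.0 and 25.1 CPM in saline and 36.8, 19.6, 5.07 and 4.78 CPM after LPS, with overlap. The change was -1.83 ± 0.33 (adjusted p = 0.000974). The difference of this change from that of microglia was -3.22 ± 0.48 (adjusted p = 1.26e-09). The call was lost when cells needed 1500 UMIs. The neutrophil class also differed in some granule genes of immature neutrophils. *Ltf* went from 9924 to 1036 CPM without overlap and *Camp* from 26499 to 6289 CPM with overlap, whereas *Ngp* was at 34958 and 28100 CPM and *Mmp8* at 2477 and 3124 CPM, both with overlap. The 12 microglia markers in neutrophils summed to 2612 to 4782 CPM in saline and 739 to 918 CPM after LPS. The 10 monocyte markers summed to 1381 to 4839 and 5204 to 7762 CPM. That list holds *Chil3*, which was also among the 10 genes that stood out most in the neutrophil class. The sum therefore does not measure monocyte RNA alone. The part of these shifts in the fall of *Ptgs2* and in the other changes of the members in neutrophils was not tested. In monocytes *Ptgs2* was not called (-0.18 ± 0.75, adjusted p = 0.885), and its 4 saline values ran from 0 to 56.1 CPM. In leptomeningeal cells it had too few counts for a test in the LPS fit, with 0, 19.1, 0 and 0 CPM in saline and 26.4, 62.5, 481 and 62.4 CPM after LPS.

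**Figure D2:**
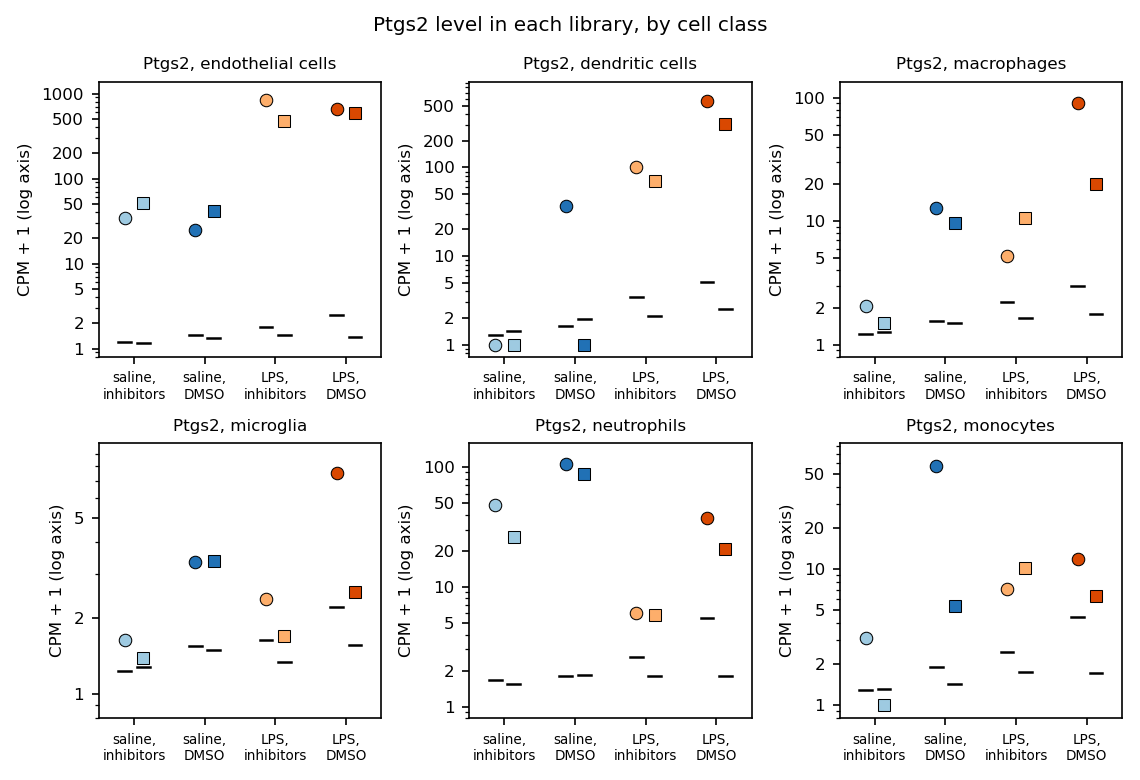
*Ptgs2* level (CPM + 1, log axis) in each library of each group, 1 panel per class, with circles for replicate 1, squares for replicate 2 and short black bars for the expected free RNA. The 4 LPS libraries of endothelial cells sit between 470 and 832 CPM, above the saline libraries at 23.7 to 51.0 CPM, while neutrophils are lower after LPS with overlapping ranges.

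*Ptges* (ENSMUSG00000050737) encodes the inducible microsomal synthase of prostaglandin E2. In microglia it went from 0.963, 1.07, 0.943 and 1.27 CPM to 27.3, 27.6, 61.3 and 55.9 CPM, and in macrophages from 0.950, 0.859, 1.04 and 0.488 CPM to 60.2, 43.8, 76.5 and 102 CPM. Both were without overlap, with changes of 6.08 ± 0.21 (adjusted p = 3.11e-10) and 6.63 ± 0.31 (adjusted p = 1.4e-10). The saline values of macrophages rested on 1 or 2 UMIs per library. The share of microglia with a *Ptges* UMI rose from 0.0934% to 2.93% after thinning, and from 0.244% to 12.3% without it. In B-cells the shares without thinning were 0.411% and 1.52%. Median depth in microglia ran from 2223 to 5532.5 UMIs, so the thinned shares are the ones at equal depth.

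Endothelial and leptomeningeal cells already held *Ptges* in saline. Endothelial cells rose from 21.2, 22.8, 12.3 and 20.8 CPM to 186, 168, 158 and 141 CPM (3.27 ± 0.20, adjusted p = 4.97e-10), and leptomeningeal cells from 51.6, 76.4, 79.9 and 81.7 CPM to 206, 125, 291 and 161 CPM (1.60 ± 0.36, adjusted p = 0.00264). Neither overlapped. On the log2 scale the rise was smaller than that of microglia, which started from a mean of 1.06 CPM. The difference was -2.34 ± 0.27 in endothelial cells (adjusted p = 1.64e-16) and -4.34 ± 0.50 in leptomeningeal cells (adjusted p = 6.3e-16). In CPM both classes lay above microglia in saline and after LPS. In leptomeningeal cells the estimated share of free RNA was higher in LPS than in saline libraries, with expected *Ptges* of at most 24.6 CPM. Their own 10 markers, none at 0, summed to 7139 to 11181 CPM in saline and 3665 to 10740 CPM after LPS, with *Slc47a1* at 893 and 79.3 CPM and *Col1a1* at 1278 and 347 CPM. The 8 astrocyte markers in these cells summed to 1372 to 2176 CPM in saline and 273 to 540 CPM after LPS, and the 10 markers of pericytes and smooth muscle to 344 to 2025 and 28.4 to 281 CPM. The 10 macrophage markers summed to 153 to 327 CPM in saline and 351 to 491 CPM after LPS, the 10 monocyte markers to 19.1 to 103 and 127 to 265 CPM, and the 12 microglia markers to 3165 to 4343 and 1542 to 2136 CPM. The part of these shifts in the rise of *Ptges* was not tested. After LPS, the levels of leptomeningeal cells (196 ± 72 CPM, SD, n = 4) and endothelial cells (163 ± 19 CPM) overlapped, and endothelial cells exceeded macrophages (70.7 ± 24.9 CPM) in every library.

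Monocytes held 0, 0, 6.39 and 4.77 CPM of *Ptges* in saline and 39.7, 22.1, 53.1 and 38.7 CPM after LPS (3.76 ± 0.46, adjusted p = 4.39e-05). Without saline inhibitors replicate 1 the change was 4.59. Neutrophils went from 5.72, 2.75, 0 and 5.01 CPM to 17.6, 14.7, 20.3 and 19.1 CPM (2.31 ± 0.57, adjusted p = 0.00811), against an expected free RNA of 1.89 to 7.59 CPM after LPS. Neither class overlapped.

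Of the prostaglandin D2 synthases, *Hpgds* (ENSMUSG00000029919), the hematopoietic form, fell in microglia and macrophages. It was at 400, 361, 379 and 369 CPM in saline microglia and at 71.4, 64.7, 65.2 and 104 CPM after LPS (-1.53 ± 0.18, adjusted p = 1.03e-05). In macrophages it went from 235, 258, 235 and 239 CPM to 21.2, 45, 25.2 and 30.6 CPM (-2.70 ± 0.21, adjusted p = 3.1e-08). Neither overlapped, and the change in macrophages minus that in microglia was -0.96 ± 0.15 on the log2 scale (adjusted p = 1.05e-08). No other class was above 2 times the free RNA in a called change of *Hpgds*.

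*Ptgds* (ENSMUSG00000015090), the lipocalin-type synthase that is also a carrier protein of the cerebrospinal fluid, had its highest levels outside the immune cells. In leptomeningeal cells it was at 1978, 9622, 3663 and 2592 CPM in saline and 3171, 2260, 1905 and 3228 CPM after LPS, with overlap and no call (-0.47 ± 0.38, adjusted p = 0.382). Choroid plexus cells, which were not tested, held 2008 ± 69 CPM in saline and 1837 ± 566 CPM after LPS, and the 114 oligodendrocytes held 9989 ± 7826 and 20005 ± 6998 CPM (SD, n = 4 libraries each). Among the immune classes, macrophages held 143, 149, 130 and 159 CPM in saline and 62.3, 69.8, 62.2 and 52.4 CPM after LPS (-0.92 ± 0.15, adjusted p = 0.000128), without overlap. In microglia the values of 22.7, 66.4, 55.5 and 81.4 CPM in saline followed the expected free RNA of 20.9, 58.8, 29.1 and 75.9 CPM, so that the called change of -2.03 ± 0.30 lay near that background.

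*Tbxas1* (ENSMUSG00000029925), thromboxane A synthase, fell in microglia and macrophages and not in monocytes. It went from 192, 191, 206 and 192 CPM to 27.3, 38.2, 35.6 and 24.2 CPM in microglia (-1.89 ± 0.14, adjusted p = 1.14e-07), and from 203, 171, 185 and 164 CPM to 37.0, 28.4, 35.3 and 32.3 CPM in macrophages (-2.10 ± 0.14, adjusted p = 9.81e-09). In monocytes it was 37.4, 40.0, 35.2 and 41.3 CPM in saline and 40.5, 49.3, 43.9 and 39.4 CPM after LPS, with overlap (0.28 ± 0.20, adjusted p = 0.317). The change in monocytes was higher than that in microglia by 2.55 ± 0.21 (adjusted p = 4.53e-13). Microglia and macrophages overlapped in saline, and after LPS monocytes, at 43.3 ± 4.5 CPM, lay above both.

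*Hpgd* (ENSMUSG00000031613), which inactivates prostaglandins, had the steepest falls of the list together with *Ltc4s*. In microglia it stood at 458, 375, 356 and 331 CPM in saline and at 15.2, 16.8, 14.4 and 11.8 CPM after LPS (-3.94 ± 0.12, adjusted p = 1.62e-10). In macrophages it went from 396, 503, 360 and 393 CPM to 8.90, 8.28, 6.73 and 5.24 CPM (-5.49 ± 0.21, adjusted p = 2.59e-11), and in monocytes from 136, 60.5, 117 and 114 CPM to 1.97, 3.16, 1.70 and 2.75 CPM (-5.29 ± 0.30, adjusted p = 8.89e-08). None of these overlapped. The monocyte class differed in makeup between groups, with 847 cells in saline and 3740 after LPS. Its markers *Ace*, *Adgre4* and *Treml4*, known from nonclassical monocytes, stood at 239, 343 and 155 CPM in saline and at 13.2, 53.6 and 54.8 CPM after LPS, and *Ccr2* and *Ly6c2*, known from classical monocytes, at 802 and 2742 CPM and at 208 and 3197 CPM. The 12 microglia markers in monocytes summed to 1684 to 2900 CPM in saline and 443 to 612 CPM after LPS, and the 10 macrophage markers to 810 to 1081 and 393 to 552 CPM. The part of these shifts in the changes of the members in monocytes was not tested. The fall was larger than in microglia, with a difference of -1.31 ± 0.23 in macrophages (adjusted p = 2.94e-07) and of -1.0 ± 0.30 in monocytes (adjusted p = 0.013). The share of microglia with an *Hpgd* UMI went from 25.1% ± 2.8 to 1.23% ± 0.21 after thinning (SD, n = 4), and from 56.7% to 7.08% without it. In endothelial cells, where *Hpgd* was near the free RNA, the thinned shares were 1.43% and 0.155%. In dendritic cells *Hpgd* was called lower too (-3.92 ± 0.57), with 1 UMI in each LPS library and the change in makeup given above.

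**Figure D3:**
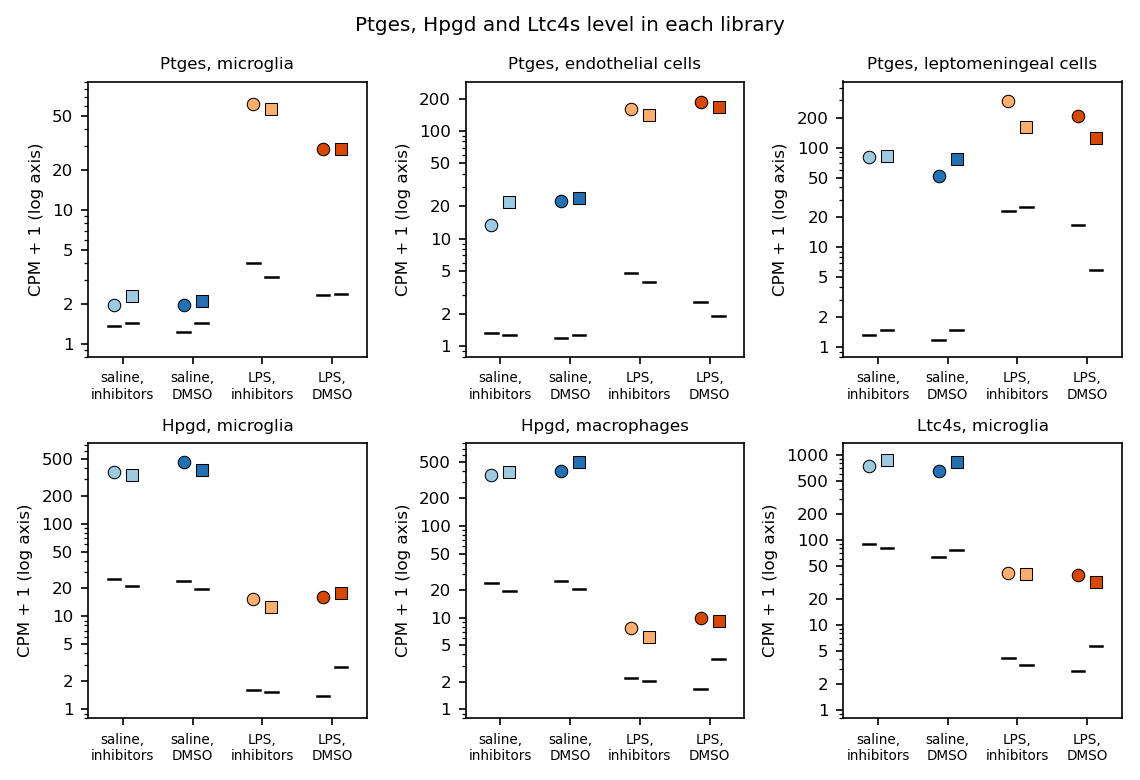
*Ptges*, *Hpgd* and *Ltc4s* levels (CPM + 1, log axes) in each library by group, 1 panel per gene and class, with circles for replicate 1, squares for replicate 2 and short black bars for the expected free RNA. In microglia *Ptges* stands at about 1 CPM in saline and at 27.3 to 61.3 CPM after LPS, while *Hpgd* goes from 331 to 458 CPM down to 11.8 to 16.8 CPM.

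In the leukotriene branch, *Alox5* (ENSMUSG00000025701), the 5-lipoxygenase, differed in direction between classes. It fell in macrophages from 58.0, 61.8, 75.7 and 59.1 CPM to 32.2, 37.9, 37.0 and 27.1 CPM (-0.60 ± 0.16, adjusted p = 0.00578), and in monocytes from 24.1, 6.48, 24.5 and 23.9 CPM to 5.13, 3.16, 5.78 and 6.41 CPM (-1.69 ± 0.36, adjusted p = 0.00294). Neither overlapped. In microglia it was 30.1, 34.7, 44.0 and 33.2 CPM in saline and 48.7, 48.5, 56.0 and 40.5 CPM after LPS, with overlap. The rise in microglia was 1.21 ± 0.12 with TMM (adjusted p = 1.63e-06) and 0.45 with library totals (adjusted p = 0.00804), so its size depended on the scaling. The change minus that in microglia was -1.61 ± 0.16 in macrophages (adjusted p = 3.09e-21) and -2.53 ± 0.34 in monocytes (adjusted p = 9.31e-08). Among the 13 classes ranked over libraries neutrophils held the highest level, 118 ± 14 CPM in saline and 113 ± 16 CPM after LPS, with a change of 0.11 ± 0.25 that was not called (adjusted p = 0.807) and had the opposite sign with library totals (-0.10).

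*Alox5ap* (ENSMUSG00000060063), which presents arachidonic acid to ALOX5, rose in neutrophils from 617, 717, 836 and 1183 CPM to 2151, 3140, 2237 and 2690 CPM. The groups did not overlap (1.82 ± 0.32, adjusted p = 0.000821), and the difference from the change in microglia was 2.53 ± 0.30 (adjusted p = 1.48e-15). The share of neutrophils with a UMI was 46.3% ± 15.4 in saline and 80.6% ± 5.4 after LPS when thinned, and 72.9% and 91.4% without thinning. In endothelial cells, where *Alox5ap* was near the free RNA, the thinned shares were 1.56% and 1.55%. The shift in *Ltf* and *Camp* described above moved with it. So did the summed level of the 10 monocyte markers in these cells, 1381 to 4839 CPM in saline and 5204 to 7762 CPM after LPS. As given above, that list holds *Chil3*, which also stood out in the neutrophil class. Their part in the rise was not tested.

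In dendritic cells *Alox5ap* fell from 589, 353, 464 and 388 CPM to 20.6, 25.7, 19.8 and 35.1 CPM (-4.15 ± 0.33, adjusted p = 1.55e-08), and the LPS values were at the expected free RNA of 20.3 to 27.4 CPM. This fall moved with the change in *Cd209a*, *Clec9a*, *Xcr1* and *Ccr7* in the same cells. In microglia *Alox5ap* was 449, 478, 504 and 498 CPM in saline and 212, 253, 191 and 157 CPM after LPS, without overlap. The change there was -0.50 ± 0.15 with TMM (adjusted p = 0.0104) and -1.26 with library totals. The call was lost with RLE scaling, within the DMSO libraries alone, and without saline DMSO replicate 2 or either saline inhibitors library. In macrophages (-0.14 ± 0.19, adjusted p = 0.582) and monocytes (-0.47 ± 0.24, adjusted p = 0.154) it was not called with TMM, and both were called lower with library totals.

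*Ltc4s* (ENSMUSG00000020377), leukotriene C4 synthase, fell in microglia from 654, 825, 749 and 864 CPM to 37.7, 31.2, 39.9 and 38.4 CPM (-3.64 ± 0.17, adjusted p = 3.15e-09). In macrophages it went from 602, 559, 686 and 700 CPM to 9.58, 17.7, 17.7 and 9.60 CPM (-5.25 ± 0.21, adjusted p = 3.57e-11). Neither overlapped, and the change in macrophages minus that in microglia was -1.44 ± 0.19 (adjusted p = 4.88e-13). Choroid plexus cells, which were not tested, held 335 ± 98 CPM in saline and 107 ± 77 CPM after LPS (SD, n = 4), above the expected free RNA in each of their libraries. The 5 calls of *Ltc4s* in T-cells, B-cells, endothelial cells, monocytes and neutrophils were of saline levels below 2 times the free RNA.

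**Figure D4:**
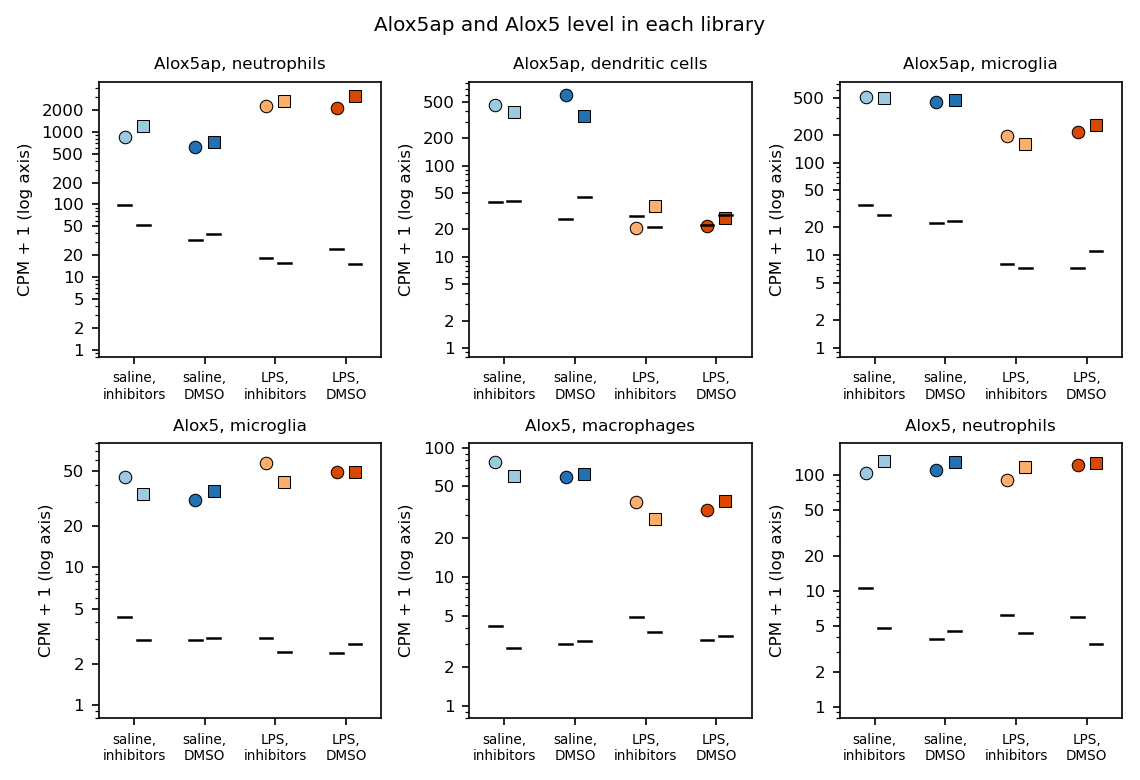
*Alox5* and *Alox5ap* levels (CPM + 1, log axes) in each library by group, 1 panel per gene and class, with circles for replicate 1, squares for replicate 2 and short black bars for the expected free RNA. *Alox5ap* in neutrophils sits between 2151 and 3140 CPM after LPS, above the saline libraries at 617 to 1183 CPM.

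The classes already differed in saline. Of 90 pairs of member and class tested against microglia, 71 were called, 12 higher and 59 lower, where 34.2% of all genes were called. The count filter took both classes together, so a member near 0 in a class could enter through microglia alone. *Alox5*, for example, was at 0 CPM in saline leptomeningeal cells. Levels near the expected free RNA are not marked among the 59. The same filter holds for the comparison of LPS changes below. *Ptgs2* was higher than in microglia by 5.50 ± 0.40 in neutrophils (adjusted p = 2.85e-41) and by 4.67 ± 0.30 in endothelial cells (adjusted p = 2.39e-53), and the neutrophil and endothelial ranges overlapped each other. *Ptges* was higher by 5.48 ± 0.62 in leptomeningeal cells and by 3.89 ± 0.37 in endothelial cells, *Ptgds* by 5.54 ± 0.21 in leptomeningeal cells, and *Alox5* by 1.70 ± 0.25 in neutrophils. The LPS change itself differed from that of microglia in 31 of 90 pairs, 14 higher and 17 lower, against 15.4% of all genes, with *Ptgs2* higher by 3.16 ± 0.22 in endothelial cells (adjusted p = 4.53e-43).

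Rare cells were described without a test. The 35 platelets and megakaryocytes, from 6 libraries, held 50 UMIs of *Alox5ap* (714 CPM, 95% exact Poisson interval 530 to 942), 20 of *Ptgs1* (286 CPM, 175 to 441), 20 of *Tbxas1* and 18 of *Ptgds* (257 CPM, 152 to 406). The 28 basophils held 77 UMIs of *Alox5ap* (1149 CPM, 907 to 1436) and 16 of *Alox5* (239 CPM, 136 to 388). The 6 mast cells held 13 UMIs of *Alox5ap* (1493 CPM, 795 to 2553) and 4 UMIs of *Hpgds* (459 CPM, 125 to 1176). In the profile of free RNA itself *Ptgs1* was at 150 to 543 CPM over the libraries, *Tbxas1* at 29.6 to 177, *Ptgds* at 127 to 839, *Alox5ap* at 154 to 385, *Alox5* at 21.6 to 45.6 and *Hpgds* at 57.2 to 342 CPM, and the share of free RNA in these rare cells was not estimated. The intervals cover counting error only.

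Between DMSO and inhibitor libraries 1 member was called. *Ptgs2*, an immediate-early gene, was higher in DMSO than in inhibitor libraries in macrophages by 3.22 ± 0.49 (adjusted p = 0.00245), in dendritic cells by 2.57 ± 0.44 (adjusted p = 0.00305), in neutrophils by 2.10 ± 0.35 (adjusted p = 0.0361) and in microglia by 2.04 ± 0.38 (adjusted p = 0.0416). These were 4 of 64 pairs called, against 0.251% of all genes, and 8 of the 64 had an unadjusted p under 0.05. In microglia, macrophages and neutrophils both DMSO libraries lay above both inhibitor libraries within saline and within LPS, and in dendritic cells within LPS only. In endothelial cells the difference was -0.16 ± 0.21 (adjusted p = 1), and in monocytes 1.06 ± 0.68 (adjusted p = 0.963). All 4 calls depended on LPS DMSO replicate 1, the highest LPS library in each of these classes: without it none of the 4 was called, with differences of 1.45 to 2.40 and adjusted p from 0.0634 to 0.280. Without LPS inhibitors replicate 1 the count was 2, and without LPS inhibitors replicate 2 it was 1. *Ptges* in microglia was lower with DMSO by a log2 difference of -0.87 that was not called (adjusted p = 0.103), and with the replicate as a block it was called (-0.91 ± 0.16, adjusted p = 0.0288).

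**Figure D5:**
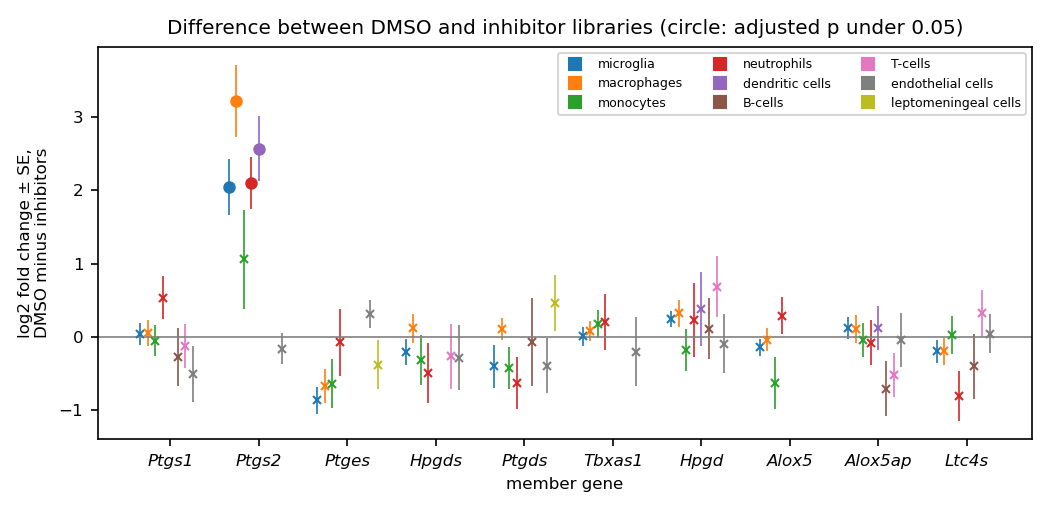
Difference of each member between DMSO and inhibitor libraries (log2, with SE) by class, 4 libraries against 4, adjusted for saline or LPS. Circles mark an adjusted p under 0.05 and crosses the rest; the 4 circles are all *Ptgs2*, between 2.04 and 3.22, and none remains when LPS DMSO replicate 1 is left out.

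The LPS change did not pass the test of a difference between DMSO and inhibitor libraries for any member. By edgeR 0 of 68 pairs were called, 7 had an unadjusted p under 0.05, and 0.0162% of all genes were called. Within the DMSO libraries alone 42 of 68 pairs were called for LPS (24.7% of all genes), and within the inhibitor libraries alone 40 of 68 (25%). In endothelial cells the *Ptgs2* change was 4.43 ± 0.36 with DMSO and 4.14 ± 0.34 with inhibitors. In microglia the *Ptges* change was 5.54 ± 0.22 and 6.55 ± 0.23, and the *Hpgd* change -3.93 ± 0.19 and -3.94 ± 0.19. In macrophages *Ptgs2* changed by 2.80 ± 0.51 and 3.36 ± 1.11.

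Of 52 other genes of the pathway, taken from a list, 118 of 200 tested pairs of listed row and class were called for LPS, 43 higher and 75 lower, against 41% of all genes in the 10 tested classes. In microglia 38 of 49 were called, 17 higher and 21 lower, where 62.7% of all genes were. In macrophages the count was 19 of 32 (49.4% of all genes) and in monocytes 19 of 34 (29.3%). In endothelial cells it was 16 of 26 (42.7%) and in neutrophils 12 of 21 (22%). These genes were not compared with the expected free RNA, so calls near that background are not marked among them. Those named below had the largest called changes of their class, and their levels are not given. A gene near 0 in 1 group could pass the count filter through the other, which leaves the size of its change uncertain. The changes in makeup and markers given above for dendritic cells and other classes apply here too, and their part was not tested. *Pla2g7*, which encodes a phospholipase that degrades platelet-activating factor, rose in microglia (3.35 ± 0.13), monocytes (3.18 ± 0.27), neutrophils (3.15 ± 0.37), endothelial cells (2.94 ± 0.48) and dendritic cells (7.24 ± 0.99). *Mgst2*, a microsomal glutathione transferase, rose in microglia (3.95 ± 0.25) and fell in monocytes (-2.39 ± 0.41) and neutrophils (-2.34 ± 0.27). Of 8 prostanoid receptors tested in microglia 6 were called, beside the same 62.7%, 5 of them lower, and the 1 that rose was *Ptger4*, which binds prostaglandin E2 (2.44 ± 0.22). *Ltb4r1*, which binds leukotriene B4, rose in macrophages (3.71 ± 0.40) and monocytes (1.74 ± 0.18) and fell in dendritic cells (-2.84 ± 0.48). The secreted phospholipase *Pla2g2d* fell in macrophages (-7.64 ± 0.48) and microglia (-2.62 ± 0.61), and *Ephx1*, an epoxide hydrolase, fell in endothelial cells (-4.49 ± 0.28). *Alox12* (-3.09 ± 0.40), *Mgst3* (-2.70 ± 0.30) and *Cbr1* (-2.33 ± 0.39) fell in endothelial cells as well, and *Ephx1* fell in monocytes (-3.34 ± 0.43), leptomeningeal cells (-1.61 ± 0.44) and T-cells (-1.61 ± 0.52) too. *Pla2g15*, a lysosomal phospholipase, fell in macrophages (-3.08 ± 0.21), neutrophils (-2.31 ± 0.45) and T-cells (-2.09 ± 0.46), and *Daglb*, a diacylglycerol lipase, in B-cells (-7.01 ± 1.46) and T-cells (-3.54 ± 0.58). *Anxa1*, which encodes annexin A1, fell in dendritic cells (-4.21 ± 0.48) and NKs (-0.94 ± 0.28). The 2 identifiers under the symbol *Dpep2*, between which the counting could split reads, rose in macrophages (3.14 ± 0.41 and 3.02 ± 0.36), *Cysltr2* in T-cells (2.22 ± 0.39) and *Ggt1* in neutrophils (2.12 ± 0.57). The others that fell were *Ggt5* in microglia (-2.73 ± 0.12), *Pla2g5* in monocytes (-2.19 ± 0.52), *Mgll* in neutrophils (-2.13 ± 0.40), *Lta4h* in T-cells (-1.29 ± 0.34), and *Ptges3* (-1.18 ± 0.27) and *Cysltr1* (-1.11 ± 0.36) in dendritic cells. None of these genes was called for DMSO (0 of 200) or for the difference of the LPS change between dissociation labels (0 of 219). Over all genes in the classes with a tested member, 0.251% and 0.0162% were called. At such shares a count of 0 does not set these genes apart.

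Over the 80 sums of library and class, the genes most like the members were found among 12821 genes by Pearson's r of log2(CPM + 1), as a description of points that share libraries and classes. *Hpgd* and *Ltc4s* were each most like the other (r = 0.917). *Ptgs2* was most like the chemokine *Cxcl1* (r = 0.804), *Ptges* most like the metallothionein *Mt2* (r = 0.778) and *Hpgds* most like *Fcrls* (r = 0.839). *Alox5* was most like *Ncf1* (r = 0.756), *Alox5ap* most like *Cd300a* (r = 0.888), *Tbxas1* most like *Fgd2* (r = 0.865) and *Ptgds* most like *Igfbp2* (r = 0.864).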

How the data were processed

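Whole brains of 8 mice, 1 mouse per library and 2 libraries per group, were profiled by PIPseq. Per the methods of the study, the authors matched barcodes, aligned reads with STAR and counted UMIs in PIPseeker, and the submitters' notes also name Seurat 4. The deposited counts are whole UMI numbers for each gene and barcode that the authors had not normalized. The genome named in the methods, GRCmm39, was not at hand, so genes were matched by symbol and promoters come from RefSeq (GRCm38.p6).

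Cells were kept with 800 to under 45000 UMIs, 250 to under 6500 genes and under 5% mitochondrial UMIs. The limit of the study on complexity was not applied. Each cell was assigned to 1 of 19 classes when at least 3 markers of that class, at a summed level of at least 0.1% of its UMIs and at least 3 times that of free RNA, were present. Microglia needed 0.2% and no other gate. A cell that passed the monocyte and neutrophil gates, and no further one besides that of microglia, counted as a neutrophil under 1 condition. Its neutrophil markers had to be at least 10 times its monocyte markers. The gate limits were set after seeing the data, and no doublet caller was run. Other cells that passed 2 or more gates besides that of microglia were left out. A cell with the microglia gate and 1 other was left out from 0.5 times the median microglia marker level of its library upward. Below that it stayed in the other class. This median follows the microglia markers, which were lower after LPS, so classes in saline could hold cells with more microglia RNA. Totals were 90352359 to 141182123 UMIs per library, and barcodes with under 100 UMIs held 15.5% to 33.7% of them. Median depth was 2207 to 3161 UMIs per cell in saline and 4149 to 4762.5 in LPS libraries. The expected free RNA of a class was the profile of those barcodes times a share estimated from markers of other classes. Outside microglia and macrophages it rested on 4 microglia genes, *P2ry12*, *Tmem119*, *Siglech* and *Fcrls*, which were chosen after seeing the data in place of the whole marker list.

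UMIs were summed per library and class, with at least 10 cells, and tested by edgeR 4.0.16 in R 4.3.3 (filterByExpr, TMM, quasi-likelihood F-test, two-sided), with Benjamini-Hochberg adjustment over all genes of the class and calls at an adjusted p under 0.05. The test of LPS had the dissociation label as a covariate, that of DMSO the *in vivo* treatment, and comparisons between classes had the mouse as a block. P-values rest on the spread between mice, 1 per library, which edgeR pools over the genes of a fit. The smallest p-values of comparisons between classes rest largely on this pooled spread and not on that of the gene alone. Replicate numbers match the batch in the labels, and the methods of the study speak of separate capture days. Over 8671 genes in microglia the deviations of same-numbered libraries correlated at 0.19 to 0.725 in all 6 pairs of groups, so a fit with the replicate as a block was run as an alternative, with DESeq2 1.42.0, other scalings, filters and gates, and each library left out. The fits were tested on simulated data, where false calls in microglia were more frequent than the adjusted p threshold and many of the smaller changes in leptomeningeal cells were missed. Named genes were the 10 members in every tested class, up to 5 pathway genes per class with the largest called LPS change, and the 3 genes most like each member, of which the text gives the nearest and 1 is not reported here. The members and lists were chosen with earlier results of these data known. Figures were drawn with Matplotlib 3.10.9.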

Additional observations from a re-analysis of the deposited data

Results flagged for a closer look

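Outlying libraries were sought by Dixon's ratio, the gap of the extreme library to its neighbor over the range of the 4 libraries, at its 95% critical value, which chance passes in about 1 in 20 groups. It was computed for the 74 groups with a mean of at least 10 CPM among the pairs called for LPS, and 8 passed, among them *Alox5* in saline monocytes (0.964), where DMSO replicate 2 stood at 6.48 CPM and the others at 23.9 to 24.5 CPM. *Tbxas1* in saline microglia (0.915) and *Hpgds* in LPS microglia (0.832) passed it too, each with 1 library above the rest (206 and 104 CPM). The others were *Hpgd* in saline T-cells (0.888) and endothelial cells (0.833), *Hpgds* in saline endothelial cells (0.861), and *Ptgs1* in LPS T-cells (0.962) and monocytes (0.831), all at levels near the expected free RNA.

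In 4 cases the LPS change was called with opposite signs in a class and in microglia, and a test of the difference with the mouse as a block passed. The differences were -1.61 for *Alox5* in macrophages, -2.53 for *Alox5* in monocytes, 2.53 for *Alox5ap* in neutrophils and -3.22 for *Ptgs2* in neutrophils. The rise of *Ptgs2* in microglia was not called with library totals or with no covariate.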

How the results depend on the processing

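For LPS, 50 pairs of member and class were called, and 33 of them were called under each alternative that could test them. The other 17 lost the call under at least 1, and none of the 50 reversed. Leaving out each library gave 49 to 53 calls, and the other alternatives 30 to 62. The lowest, 30, came with the expected free RNA subtracted, by the whole marker list as planned and also by the 4-gene estimate chosen after seeing the data, and the highest without a filter on low counts. *Tbxas1* in endothelial cells lost its call in 11 of 18 alternatives. For DMSO, leaving out each library gave 0 to 5 calls against 4, and the other alternatives 0 to 6. The count was 0 with no covariate, 2 with at least 1500 UMIs per cell, 2 with the 4-gene subtraction and 6 without a filter on low counts. *Ptgs2* in neutrophils lost its DMSO call in 10 of 19 alternatives. With the replicate block, the pairing by batch, 54 pairs were called for LPS, 5 for DMSO and 0 for the difference between dissociation labels. The LPS calls that the block added were *Alox5ap*, *Hpgds* and *Ptgds* in T-cells and *Ltc4s* in dendritic cells. Of these, *Ptgds* in T-cells and *Ltc4s* in dendritic cells had no test in the main fit. *Ptges* in microglia was the DMSO call that the block added. Between classes in saline 68 to 71 pairs were called, and for the difference of the LPS change from microglia 29 to 31. Of 100 pairs, 64 passed the filter on low counts. The causes of these differences were not tested.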
